A study of Oryza sativa Indica Group and Oryza sativa Japonica Group with 12 samples.

Results

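Wide anchors are the ends of H3K27me3-associated chromatin loops that spanned 20 kb or more. They were chosen by width alone from the unique anchors of 6 deposited loop lists, and 1831 anchors met the limit. MH63 seedling held 237 of 12002 anchors, MH63 root 492 of 11345, ZS97 seedling 186 of 9780, ZS97 root 352 of 11997, Dongjin 323 of 10393 and osemf2b 241 of 6700.

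The lists came from ChIA-PET with an H3K27me3 antibody, a method that joins DNA ends held close together in fixed chromatin and sequences the joined product from its 2 ends, a paired-end tag (PET). The 12 samples formed 6 groups of 2 replicates: the cultivar Minghui 63 (MH63) as seedling and as root, the cultivar Zhenshan 97 (ZS97) likewise, both indica rice, seedlings of the japonica cultivar Dongjin, and osemf2b seedlings, whose cultivar is also given as Dongjin. No further treatment or age is named in the labels, and the allele of osemf2b is not given there. Each group was deposited as 1 list that pools both replicates, so the spread between replicates is unknown, differences were not tested and p-values are left out.

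H3K27me3 is the repressive histone mark that Polycomb repressive complex 2 (PRC2) writes on histone H3. In plants the mark covers whole genes and sometimes runs across clusters of neighbouring genes, and marked regions tend to meet each other in the nucleus. OsEMF2b is a rice homologue of Drosophila Su(z)12, a core PRC2 subunit.

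A loop joins 2 anchors, and the number of PETs that link them is its strength. Tags at an anchor are taken to be all read ends that fall in it, looped or not. The lists held 282020 to 818847 PETs, and the total tags behind them, recovered from the deposited p-values, ran from 13.4 M in ZS97 root to 51.2 M in ZS97 seedling (M, 1000000). A contact that a list lacks did not pass the authors' thresholds and may still exist. In tissue-wide libraries a contact present in fewer cells and a weaker contact in all cells cannot be told apart. Positions of the MH63 and ZS97 lists share 1 coordinate system and those of Dongjin and osemf2b another. Their builds are unknown here, so the positions below are those of the lists, with no gene or sequence attached, and neither the tissues nor the locus altered in osemf2b was checked against genes.

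Wide anchors were few but carried a large part of every list. They made up 1.97% of anchors in MH63 seedling (95% exact binomial interval 1.73 to 2.24), 4.34% in MH63 root (3.97 to 4.73), 1.90% in ZS97 seedling (1.64 to 2.19), 2.93% in ZS97 root (2.64 to 3.25), 3.11% in Dongjin (2.78 to 3.46) and 3.60% in osemf2b (3.16 to 4.07). In both varieties the root list had the larger share, and the intervals of root and seedling did not overlap. These intervals, like all others here, cover counting error only. The list with the most total tags, ZS97 seedling, had the fewest wide anchors, and the list with the fewest total tags, ZS97 root, had the second most. Whether the peak calling behind the anchors differed between the lists was not tested.

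Of all anchor sequence, wide anchors held 19.3% in MH63 seedling, 29.9% in MH63 root, 18.0% in ZS97 seedling, 21.1% in ZS97 root, 21.3% in Dongjin and 35.6% in osemf2b. Their share of the tags at anchors was 34.2%, 37.3%, 26.3%, 30.9%, 34.5% and 60.8% in the same order. PETs with a wide anchor at 1 end or both made up 47.3%, 52.9%, 36.7%, 42.4%, 51.3% and 79.2% of the list. In osemf2b, 3.60% of anchors therefore touched 79.2% of PETs, and the other lists lay between 36.7% and 52.9%.

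**Figure D1:**
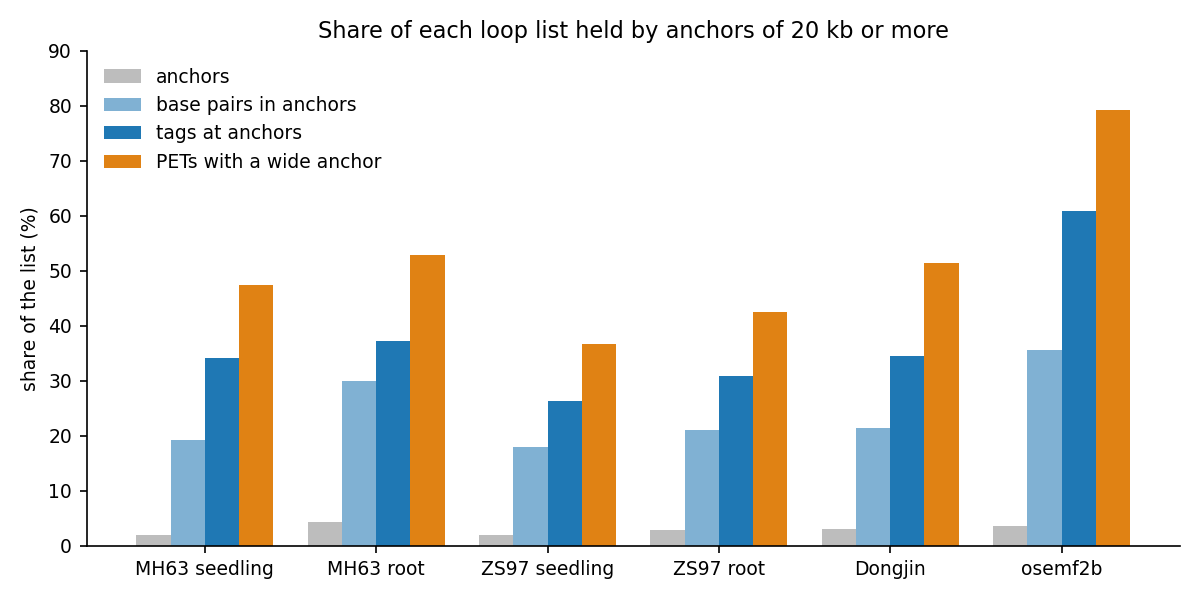
Share of each loop list (%, vertical axis) held by anchors of 20 kb or more, as bars for 4 quantities in the 6 lists. The anchors are 1.90% to 4.34% of all anchors, while the orange bars for PETs run from 36.7% in ZS97 seedling to 79.2% in osemf2b.

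Most wide anchors were not far above the limit. Their median width was 26.4 kb in MH63 seedling, 28.2 kb in MH63 root, 26.5 kb in ZS97 seedling, 27.4 kb in ZS97 root, 25.9 kb in Dongjin and 29.5 kb in osemf2b. At least 50 kb were reached by 21, 62, 15, 33, 21 and 37 of them, and at least 100 kb by 4, 12, 1, 1, 4 and 4. In 4 lists the widest anchor lay on chromosome 2: 177.898 kb in MH63 seedling (17000982 to 17178879), 196.127 kb in MH63 root (16984222 to 17180348), 110.527 kb in ZS97 root (17020965 to 17131491) and, in the other coordinate system, 158.274 kb in Dongjin (17161342 to 17319615). In ZS97 seedling the widest anchor was 106.089 kb on chromosome 10 (2357574 to 2463662), and in osemf2b it was 150.457 kb on chromosome 12 (19276316 to 19426772).

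Anchors close to the limit are given as values only. In Dongjin the anchors just inside it, 20.001 and 20.007 kb wide, had 1508 and 1074 tags per kb, and those just outside, 19.978 and 19.888 kb wide, had 528 and 561. In ZS97 seedling the anchors just inside had 1295 and 1520 tags per kb, and those just outside had 1305 and 1584. In osemf2b the values were 771 and 2227 inside against 454 and 457 outside, and in MH63 root 721 and 475 inside against 355 and 596 outside. The corresponding pairs were 387 and 964 against 290 and 641 in MH63 seedling, and 201 and 190 against 202 and 308 in ZS97 root.

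Wide anchors were also denser. The median tag density was 521 tags per kb in wide anchors against 147 in narrower ones in MH63 seedling, 635 against 378 in MH63 root, 1254 against 548 in ZS97 seedling, 227 against 106 in ZS97 root, 709 against 255 in Dongjin and 1581 against 137 in osemf2b. The ratio of these medians was 3.55, 1.68, 2.29, 2.15, 2.78 and 11.5. In osemf2b it was 9.01 over anchors of loops with at least 3 PETs and 5.85 with at least 5 PETs. No wide anchor of MH63 seedling, ZS97 seedling or osemf2b lay below the narrower median of its list, while 14 did in MH63 root, 3 in ZS97 root and 1 in Dongjin.

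As tags per kb per 1000000 total tags, the wide median was 50.7 in osemf2b against 18.0 in Dongjin, and the narrower median was 4.41 against 6.46. Compared with Dongjin, osemf2b thus had a higher median density in wide anchors and a lower one over all narrower anchors together. The narrower anchors differ in width between the lists. Under 2 kb were 4376 of the 6700 osemf2b anchors and 4526 of the 10393 Dongjin anchors. The part of this in the lower narrower median was not tested. Among the MH63 and ZS97 lists the scaled wide median lay between 15.4 in MH63 root and 24.5 in ZS97 seedling.

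Density increased with width over the whole range in every list. In Dongjin the median went from 191 tags per kb under 2 kb through 273, 369, 494 and 687 to 888 at 50 kb or more. In osemf2b it went from 101 through 252, 595, 1042 and 1569 to 1761. These values are not scaled on total tags, which were 39.4 M in Dongjin and 31.2 M in osemf2b. Unscaled, osemf2b anchors were thinner than Dongjin anchors up to 5 kb and denser from there on. The width at which the order changes depends on the scale.

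**Figure D2:**
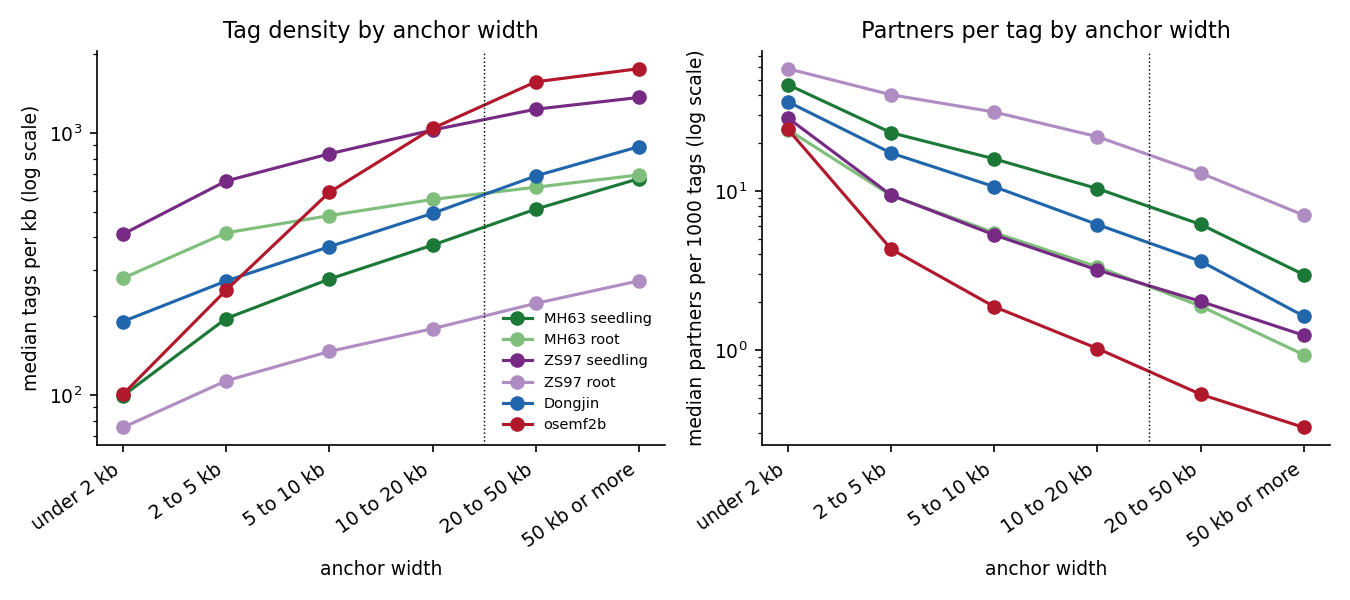
Left, median tags per kb (log scale) of anchors in 6 width bands for each list. Right, median partners per 1000 tags (log scale); the dotted line marks 20 kb. Density increases with width in all lists, most steeply in osemf2b from 101 to 1761 tags per kb, while partners per 1000 tags decrease.

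The extremes of density differed in place between lists, with a few exceptions. The densest wide anchor was on chromosome 3 from 5728666 to 5782986 in MH63 seedling (1040 tags per kb), on chromosome 3 from 7490715 to 7518398 in MH63 root (1205), on chromosome 8 from 24720345 to 24745308 in ZS97 seedling (2732) and on chromosome 3 from 7486673 to 7519183 in ZS97 root (571). Both root lists thus had their densest wide anchor at the same place. The ZS97 root anchor that ranked next, chromosome 3 from 5729205 to 5782990 with 474 tags per kb, coincided with the densest of MH63 seedling. In Dongjin the leader was chromosome 7 from 2689572 to 2726797 (1527 tags per kb), and the overlapping anchor of osemf2b, 2688119 to 2736952, ranked next to the top of its list (3185), behind chromosome 3 from 6013719 to 6077120 (3767). At the other end, an MH63 root anchor on chromosome 4 from 13523222 to 13544812 had 55.9 tags per kb and 6 partners.

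Wide anchors lay less often in the middle of chromosomes than narrower ones, and in the seedling lists more often toward the ends. With each chromosome measured from its first base to its last anchor, the outermost 10% at both ends held 32.5% of wide anchors in MH63 seedling against 22.7% of narrower ones, 22.4% against 21.2% in MH63 root, 32.3% against 24.6% in ZS97 seedling, 23.9% against 21.8% in ZS97 root, 26.3% against 21.4% in Dongjin and 28.2% against 22.4% in osemf2b. The middle 20% held 6.75% against 13.9%, 10.4% against 16.2%, 4.30% against 13.2%, 8.24% against 15.6%, 9.91% against 16.8% and 9.54% against 15.5%. The direction was alike in all 6 lists, and the excess at the ends was smallest in the root lists. There the ends held 110 wide anchors in MH63 root and 84 in ZS97 root. Counting error was not computed for these shares, so so small an excess is not read as a difference. Centromeres were not placed here.

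The number of wide anchors per 10 Mb differed between chromosomes. In MH63 root it was 22.0 per 10 Mb on chromosome 12, 21.0 on chromosome 9 and 20.8 on chromosome 11, against 9.89 on chromosome 4 and 9.94 on chromosome 6. ZS97 root was led by chromosome 11 (14.9 per 10 Mb) and Dongjin by chromosome 9 (13.97 per 10 Mb). In MH63 seedling the lead was with chromosome 8 (9.99 per 10 Mb), and chromosome 4 had 3.40. In osemf2b the range was narrower, from 4.74 on chromosome 10 to 9.61 on chromosome 9.

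A part of the wide anchors had a wide neighbour. Within 100 kb another wide anchor was found for 30.0% of them in MH63 seedling, 48.8% in MH63 root, 31.2% in ZS97 seedling, 38.6% in ZS97 root, 36.5% in Dongjin and 30.3% in osemf2b. In MH63 root 64 of the 492 had one within 10 kb, and the smallest gap was 0.07 kb. Whether such neighbours are 1 marked stretch listed in pieces was not tested. No share for narrower anchors was computed, and a list with more wide anchors has more possible neighbours. At the other extreme 31 to 53 anchors per list had no wide neighbour within 1 Mb.

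A wide anchor had many more partners, that is, other anchors it was looped to, than a narrower one. The median was 86 partners in MH63 seedling against 8 for narrower anchors, 34 against 11 in MH63 root, 69 against 15 in ZS97 seedling, 81 against 11 in ZS97 root, 68 against 13 in Dongjin and 26 against 3 in osemf2b. The lowest number for a wide anchor was 47, 6, 36, 40, 35 and 6 in these lists, and the highest was 293, 109, 170, 167, 232 and 99. Per tag the order turned: wide anchors had a median of 5.95 partners per 1000 tags against 30.8 in MH63 seedling, 1.79 against 11.4 in MH63 root, 1.96 against 15.8 in ZS97 seedling, 12.5 against 41.7 in ZS97 root, 3.497 against 20.1 in Dongjin and 0.508 against 12.99 in osemf2b. The PETs a loop needs to be listed grow with the tags at its anchors, so partners are harder to list at anchors rich in tags. How far this sets the lower number per tag was not tested.

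Wide anchors had a smaller part of their partners under 100 kb than narrower ones and a larger part from 100 kb to 1 Mb. Distances were taken between the facing edges of 2 anchors. Partners at 100 kb to 1 Mb made up 22.0% of those of wide anchors in MH63 seedling against 14.9% for narrower anchors, 30.8% against 16.3% in MH63 root, 14.8% against 6.85% in ZS97 seedling, 16.2% against 11.9% in ZS97 root, 30.5% against 21.3% in Dongjin and 20.9% against 10.5% in osemf2b. Partners under 100 kb made up 9.09% against 18.9% in MH63 seedling, 19.5% against 27.3% in MH63 root and 9.60% against 12.9% in ZS97 seedling. In ZS97 root they made up 9.08% against 17.1%, in Dongjin 9.83% against 19.5% and in osemf2b 17.0% against 23.7%. Partners over 1 Mb on the same chromosome made up 16.3% against 10.1% in MH63 seedling, 9.12% against 6.15% in MH63 root, 9.32% against 7.97% in ZS97 seedling, 11.7% against 8.77% in ZS97 root, 18.3% against 10.7% in Dongjin and 8.79% against 7.52% in osemf2b.

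Most wide anchors had a partner over 1 Mb away on the same chromosome. No wide anchor of MH63 seedling, ZS97 root or Dongjin was without such a partner. In ZS97 seedling 1 was without, in MH63 root 62 (12.6%) and in osemf2b 39 (16.2%). Among narrower anchors the share without one ran from 31.3% in ZS97 seedling to 76.4% in osemf2b. Each of the 1831 wide anchors had at least 1 partner on another chromosome, which 0.417% (ZS97 seedling) to 13.3% (osemf2b) of narrower anchors lacked.

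The share of partners on other chromosomes was lower for wide than for narrower anchors in 5 lists: 52.6% against 56.1% in MH63 seedling, 40.5% against 50.3% in MH63 root, 66.3% against 72.2% in ZS97 seedling, 41.4% against 48.4% in Dongjin and 53.3% against 58.3% in osemf2b. In ZS97 root it was 63.1% (62.5 to 63.6) against 62.2% (62.0 to 62.4), and the direction was the opposite. The share depends on weak loops: with loops of 5 or more PETs only, it was 27.02% for wide anchors in MH63 seedling, 21.0% in MH63 root, 49.7% in ZS97 seedling, 31.03% in ZS97 root, 21.97% in Dongjin and 35.1% in osemf2b. Counted in PETs, the share on other chromosomes was lower for wide anchors in all 6 lists: 15.1% against 29.5%, 7.38% against 20.1%, 26.6% against 46.4%, 23.5% against 35.6%, 8.70% against 20.1% and 22.5% against 28.5% in list order. The osemf2b list had the largest share of PETs over 1 Mb at wide anchors, 19.1% against 11.8% in Dongjin and 7.24% to 14.1% in the other lists.

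**Figure D3:**
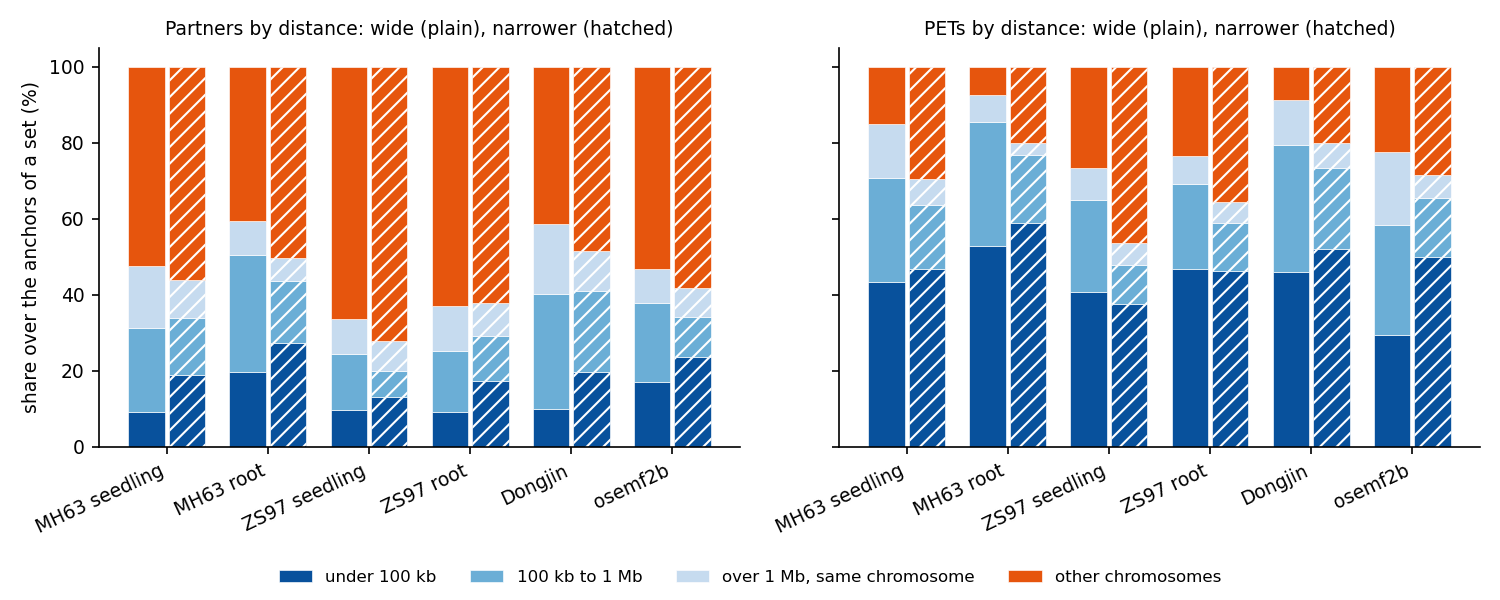
Share (%) of partners (left) and of PETs (right) by distance class, summed over wide anchors (plain bars) and narrower anchors (hatched bars) of each list. Wide anchors hold more partners at 100 kb to 1 Mb, such as 30.5% against 21.3% in Dongjin, and less of their PETs lies between chromosomes.

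The best-connected wide anchors reached in all directions at once. The anchor on chromosome 12 from 17589452 to 17727760 led MH63 seedling within 1 Mb (80 partners), over 1 Mb (112) and on other chromosomes (101), and its root counterpart, 17578538 to 17728023, led MH63 root within 1 Mb (51) and over 1 Mb (32). In the other coordinate system the chromosome 12 anchor from 19287756 to 19424123 had 115 of the 232 partners over 1 Mb away in Dongjin. In osemf2b the anchor from 19276316 to 19426772, which covers it, had 99 partners, 50 of them on other chromosomes, but 17716 PETs against 7170 in Dongjin. Its tags were 365106 in osemf2b and 109751 in Dongjin, so that fewer partners went with more tags and PETs.

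Others leaned one way. In ZS97 seedling the chromosome 5 anchor from 6152283 to 6250508 had 113 of 155 partners on other chromosomes, and in ZS97 root the chromosome 8 anchor from 682952 to 769089 had 97 of 116. In Dongjin the chromosome 11 anchor from 11092453 to 11119435, only 26.983 kb wide, had the most partners on other chromosomes (68 of 100). By contrast the Dongjin chromosome 11 anchor from 25803300 to 25900199 had 77 partners within 1 Mb and 79 over 1 Mb, against 39 elsewhere. The osemf2b anchor with the highest density, on chromosome 3 from 6013719 to 6077120, had 36 of 45 partners and 1879 of 1962 PETs on other chromosomes.

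Contacts between wide anchors were a small part of the loops and a large part of the PETs. There were 515 such loops in MH63 seedling, 941 in MH63 root, 245 in ZS97 seedling, 920 in ZS97 root, 904 in Dongjin and 334 in osemf2b, which is 0.596%, 1.25%, 0.271%, 0.830%, 0.957% and 2.10% of the loops. They held 9.51%, 16.8%, 6.47%, 7.38%, 13.8% and 39.5% of the PETs. Another wide anchor was among the partners of 88.0% of wide anchors in osemf2b and of 89.4% to 98.6% in the other lists. Linked through such contacts, 227 of the 237 wide anchors of MH63 seedling and 188 of the 241 of osemf2b formed a single connected set.

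The expected PETs of a pair are the tags of one anchor times those of the other, over the total tags, the quantity behind the deposited p-values. Under 100 kb, 95.8% to 100% of all possible pairs of wide anchors were listed, and their summed PETs were 27.7 times the expected in MH63 seedling, 21.2 in MH63 root, 9.44 in ZS97 seedling, 42.8 in ZS97 root, 25.8 in Dongjin and 3.99 in osemf2b. From 100 kb to 1 Mb, 88.5% of the possible pairs were listed in MH63 seedling, 56.4% in MH63 root, 72.8% in ZS97 seedling, 69.6% in ZS97 root, 87.6% in Dongjin and 58.3% in osemf2b, at 4.90, 4.84, 2.74, 7.92, 5.89 and 1.72 times the expected. Over 1 Mb the listed share dropped to 9.67%, 2.11%, 3.44%, 4.48%, 9.21% and 2.53%, at 2.06, 2.04, 1.53, 2.69, 2.04 and 1.21 times. Excess over expectation thus declined with distance in every list, and osemf2b had the smallest excess at each distance. The ratio covers listed pairs only and is bounded from below by the threshold for listing.

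In 5 lists the strongest pair of wide anchors was a pair of neighbours. In MH63 seedling the pair on chromosome 1 from 4976163 to 5064955 and from 5067311 to 5091484, with 2.355 kb between them, had 2662 PETs where 80.3 were expected. In Dongjin the pair on chromosome 1 from 5540509 to 5639261 and from 5640365 to 5663615 had 2831 PETs, 31.8 times the expected. In osemf2b the leading pair, on chromosome 12 from 25104863 to 25178169 and from 25189471 to 25239138, had 2746 PETs where 784 were expected, or 3.505 times. The exception was MH63 root, where chromosome 7 from 1738144 to 1886545 and from 2106612 to 2260136, with 220 kb between them, had 2390 PETs and 6.996 times the expected.

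Over 1 Mb the osemf2b chromosome 12 anchor at 19276316 met both members of that pair, with 2265 and 2119 PETs across 5678 and 5763 kb. These were 1.19 and 1.20 times the expected number. The strongest Dongjin pair over 1 Mb joined chromosome 11 from 18530786 to 18627588 with 25803300 to 25900199, with 450 PETs and 1.77 times the expected. In MH63 seedling the leading pair was chromosome 11 from 24443479 to 24533022 with 26114830 to 26190430, at 428 PETs (4.16 times), and the overlapping pair led ZS97 root with 120 PETs (3.03 times). Among these leading distant pairs the excess was thus smallest in osemf2b, where the PETs were most.

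Between chromosomes, wide anchors were listed with each other in 72 pairs in MH63 seedling, 98 in MH63 root, 68 in ZS97 seedling, 335 in ZS97 root, 100 in Dongjin and 101 in osemf2b. These were 0.0890% to 0.594% of the possible pairs. To be listed, a possible pair needed a median of 19, 19, 40, 9, 19 and 101 PETs, so the lists differ in how weak a contact they can hold. The pairs held 22787 PETs in osemf2b against 2447 in Dongjin and 1507 to 3885 in the other lists. This was 8.08% of the osemf2b list and 0.299% of the Dongjin list, and 32.4% of all interchromosomal PETs in osemf2b against 1.82% in Dongjin.

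The osemf2b pairs were strong in PETs and close to expectation. Each of the 101 pairs lay under 2 times the expected number, with a range from 1.09 to 1.83, and 62 had at least 100 PETs. In Dongjin 52 of 100 lay under 2 times, with a highest ratio of 3.53 and no pair of 100 PETs. Over possible pairs the medians were 72.7 expected and 101 needed PETs in osemf2b, and 9.41 and 19 in Dongjin. An osemf2b pair could thus be listed closer to expectation, and the part of this in the contrast was not tested. The leading osemf2b pair, chromosome 10 from 2691766 to 2744912 with chromosome 12 from 19276316 to 19426772, had 1586 PETs where 1456 were expected. Next came chromosome 12 from 25189471 to 25239138 with chromosome 3 from 6013719 to 6077120, with 1266 PETs where 1154 were expected.

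More than 3 times the expected number was reached by 116 of 335 pairs in ZS97 root and 14 of 98 in MH63 root. In MH63 seedling 2 of 72 pairs reached it, and in Dongjin 4 of 100. Over possible pairs the medians were 3.24 expected and 9 needed PETs in ZS97 root, and 8.60 and 19 in MH63 root. They were 9.79 and 19 in MH63 seedling, and 9.41 and 19 in Dongjin. The lowest ratio that could be listed thus differed between lists, and its part in these counts was not tested. Near the starts of chromosomes 11 and 12, a duplicated segment in rice, 791087 to 816628 and 808661 to 854704 had 93 PETs in MH63 root (6.57 times the expected), and 723545 to 744375 with 809882 to 854678 had 51 PETs in ZS97 root (19.8 times). Loops overlapping both ends of these pairs were present in all 4 lists. How reads from near-identical copies were placed is not known here. The highest ratio of all, chosen after its value was seen, was chromosome 5 from 6101461 to 6122104 with chromosome 7 from 6058125 to 6085605 in ZS97 root, at 43 PETs where 1.06 were expected, or 40.5 times. A loop over both ends was also listed in ZS97 seedling and in neither MH63 list.

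The places of wide anchors were mostly listed in every MH63 and ZS97 list, and fewer were wide in every list. Merged where they overlapped by at least 1 bp, the wide anchors of the 4 lists formed 550 domains covering 19.0 Mb. Of these, 148 (26.9%) were wide in all 4 lists, 43 in 3, 164 in 2 and 195 in 1. An anchor of some width was present in every list in 520 of the 550. This count includes the 148 and so could not be the lower one. The same count was not made for narrower anchors. The centre of a wide anchor lay in an anchor of another of these lists in 67.9% to 98.9%, depending on the pair of lists, against 50.1% to 88.4% for narrower anchors.

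Most domains that were not wide everywhere were wide in a root list. The commonest patterns beside all 4 lists were MH63 root alone (151 domains), both roots and neither seedling (117), ZS97 root alone (40) and both MH63 lists with neither ZS97 list (33). By contrast 11 domains were wide in both seedlings and neither root, 3 in MH63 seedling alone and 1 in ZS97 seedling alone. Of the wide anchors of MH63 seedling, 93.2% (89.3 to 96.1) overlapped a wide anchor of MH63 root, while 43.3% (38.9 to 47.8) of those of MH63 root did so in seedling. In ZS97 the values were 88.7% (83.3 to 92.9) and 46.9% (41.6 to 52.2). The wide set of each seedling list was thus largely contained in that of its root list.

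**Figure D4:**
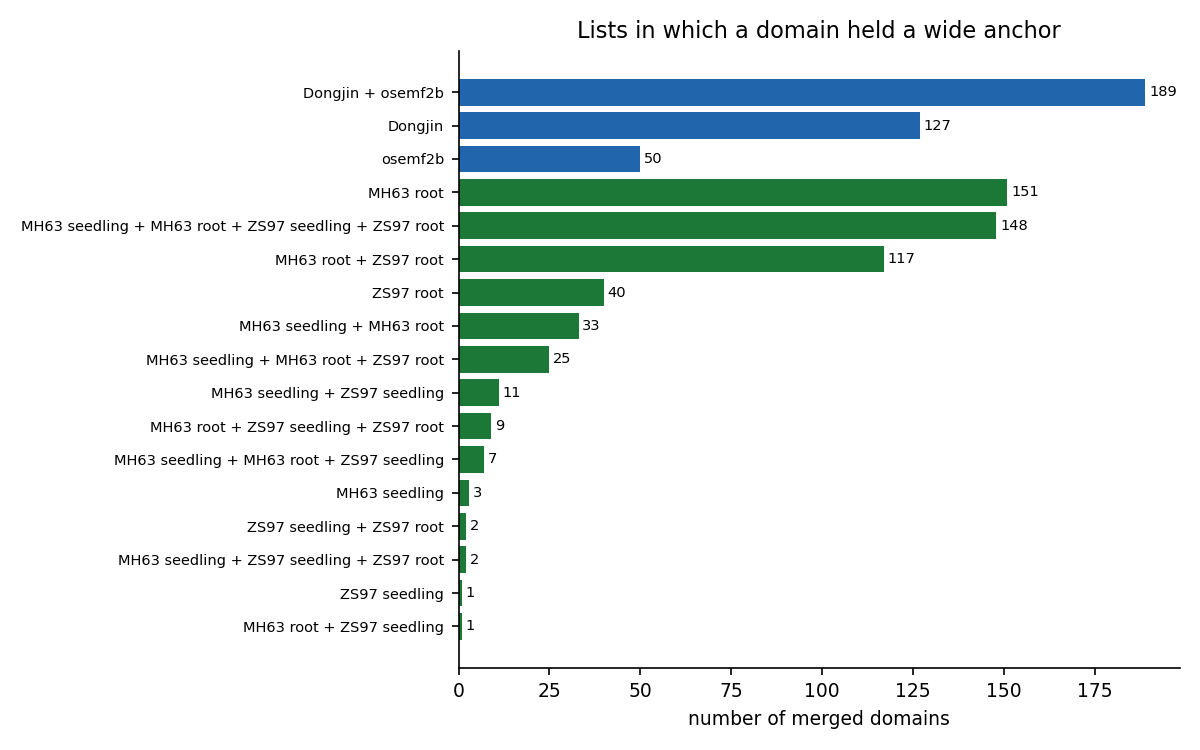
Number of merged domains (horizontal axis) by the lists in which they held a wide anchor, with green bars for the 550 domains of MH63 and ZS97 and blue bars for the 366 of Dongjin and osemf2b. Wide anchors in all 4 lists (148), in MH63 root alone (151) and in both roots (117) are the commonest MH63 and ZS97 patterns.

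Where a root anchor was wide and overlapped only narrower seedling anchors, the seedling held from 1 to many of them. In MH63, 167 of 273 such root anchors (61.2%) overlapped 3 or more seedling anchors, 63 overlapped 2 and 43 overlapped 1. In ZS97, 90 of 182 (49.5%) overlapped 3 or more, 56 overlapped 2 and 36 overlapped 1. The reverse set was small, with 15 seedling wide anchors of MH63 and 21 of ZS97, of which 6 and 7 overlapped 3 or more root anchors. In the 117 domains wide in both roots only, the widest seedling anchor had a median of 12.02 kb in MH63 and 10.5 kb in ZS97, against 29.3 and 25.8 kb in root. Seedling anchors covered 54.3% (MH63) and 46.6% (ZS97) of the summed length of these domains.

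Between varieties, 72.6% (66.4 to 78.2) of MH63 seedling wide anchors overlapped a wide anchor of ZS97 seedling, and 92.5% (87.7 to 95.8) of those of ZS97 did so in MH63. For roots the values were 61.0% (56.5 to 65.3) and 87.2% (83.3 to 90.5). Anchors that were wide in both lists were the wider ones: in MH63 root, 58 of 300 shared with ZS97 root reached 50 kb against 4 of the 192 not shared. The median width was 32.4 kb against 24.2 kb. Width chose the anchors, and a longer anchor overlaps others more readily, so these values are descriptions.

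The 148 domains wide in all lists had more tags than those wide in both roots and neither seedling. Their median was 811 tags per 1000000 total tags in MH63 seedling, 654 in MH63 root, 763 in ZS97 seedling and 670 in ZS97 root. The 117 root domains had 256 and 286 in the seedlings of MH63 and ZS97 and 454 and 435 in the roots. In root they carried more tags than in seedling in 101 of 117 in MH63 and 104 of 117 in ZS97, whereas the domains wide in all lists carried fewer in root in 120 and 106 of 148. Which list made a domain wide depends on its tags there, so these values describe the classes and test nothing.

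The domains wide in all 4 lists with the most PETs lay on chromosomes 7, 12 and 11. The domain on chromosome 7 from 2106612 to 2260136 had 8684 PETs in MH63 seedling, 7901 in MH63 root, 4919 in ZS97 seedling and 4660 in ZS97 root. It was 1 anchor of 153.525 kb in MH63 root, while the widest anchor elsewhere was 44.574, 31.651 and 53.842 kb. The next, chromosome 7 from 1738144 to 1886545, had 7248, 7253, 5322 and 2673 PETs. On chromosome 12 from 17578538 to 17728023 the widest anchor was 138.309 and 149.486 kb in MH63 but 28.859 and 31.462 kb in ZS97, where the domain was split into 11 and 9 anchors. On chromosome 11, 19214911 to 19291355 and 19106952 to 19184640 had the most PETs in ZS97 seedling, 7382 and 7013.

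Among domains wide in a single list, chromosome 11 from 24749932 to 24898321 led. MH63 root had there 1 anchor of 148.39 kb with 79529 tags and 5874 PETs, MH63 seedling had 2188 PETs with no anchor over 16.527 kb, and ZS97 had 193 PETs in seedling and 1197 in root with no anchor over 9.826 kb. On chromosome 7 from 1914736 to 1961934 MH63 root had 3060 PETs and an anchor of 47.199 kb, and the widest anchor of the other lists was 17.47 kb. On chromosome 8 from 19114784 to 19150458 the other lists came close to the limit, at 16.488, 16.377 and 15.981 kb, against 35.675 kb in MH63 root, which had 1168 PETs against 2231 in MH63 seedling.

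Pairs of wide anchors recurred often within 1 Mb and seldom between chromosomes. Of the loops between wide anchors within 1 Mb, 58.8% to 96.9% had a loop over both ends in another of the 4 lists, depending on the pair of lists, against 21.6% to 60.3% for loops between narrower anchors. Over 1 Mb the share was 15.02% to 68.1%, against 0.520% to 2.15%. Between chromosomes it was 0 of 72 MH63 seedling pairs in MH63 root and in ZS97 seedling, 0 of 68 ZS97 seedling pairs in either MH63 list, and at most 6 of 98 (6.12%, 2.28 to 12.9), for MH63 root in ZS97 root. Among interchromosomal loops between narrower anchors the share was 0.173% to 0.981%. Wide anchors overlap more of the other list by their length, and the effect of this on the shares was not tested.

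In Dongjin and osemf2b the wide anchors formed 366 domains covering 12.6 Mb. Of these, 189 were wide in both lists, 127 in Dongjin alone and 50 in osemf2b alone. Only 1 domain, chromosome 12 from 21906487 to 21927859 with 536 PETs in Dongjin, held no osemf2b anchor. Of the Dongjin wide anchors 60.7% (55.1 to 66.0) overlapped a wide anchor of osemf2b, and 79.3% (73.6 to 84.2) of those of osemf2b did so in Dongjin. With a minimum of 30 kb these shares were 69.2% and 63.5%, so their order depends on the width limit. The centre lay inside an osemf2b anchor for 84.2% of wide Dongjin anchors and for 32.3% of narrower Dongjin anchors, so wide anchors were present in osemf2b far more often. Wide anchors were also denser than narrower ones in Dongjin, and the part of density in this difference was not tested.

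The Dongjin anchors that were wide in osemf2b too had been denser in Dongjin. Their median was 851 tags per kb against 556 for the 127 that were not, and 20 against 1 reached 50 kb. The 191 osemf2b wide anchors shared with Dongjin had a median width of 31.6 kb against 23.1 kb for the other 50. Here too width bears on which anchors count as shared, so the widths are descriptions. In the 189 shared domains osemf2b anchors covered more of the domain in 144 and less in 45.

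Which list a domain is wide in depends on its tags there, so the values of the 3 classes are descriptions. The 189 shared domains held 41.4% of the total tags of osemf2b and 15.4% of those of Dongjin. Their median went from 631 to 1701 tags per 1000000, with a median ratio of 2.92, and 178 of 189 had more in osemf2b. The 127 domains wide in Dongjin alone went from 362 to 168 tags per 1000000, and 93 had fewer in osemf2b. The 50 wide in osemf2b alone went from 361 to 1164, and 49 had more. Within these classes the spread was wide: the log2 ratio of the shared domains ran from -1.92 to 2.98, and that of the domains wide in Dongjin alone from -6.48 to 1.49.

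**Figure D5:**
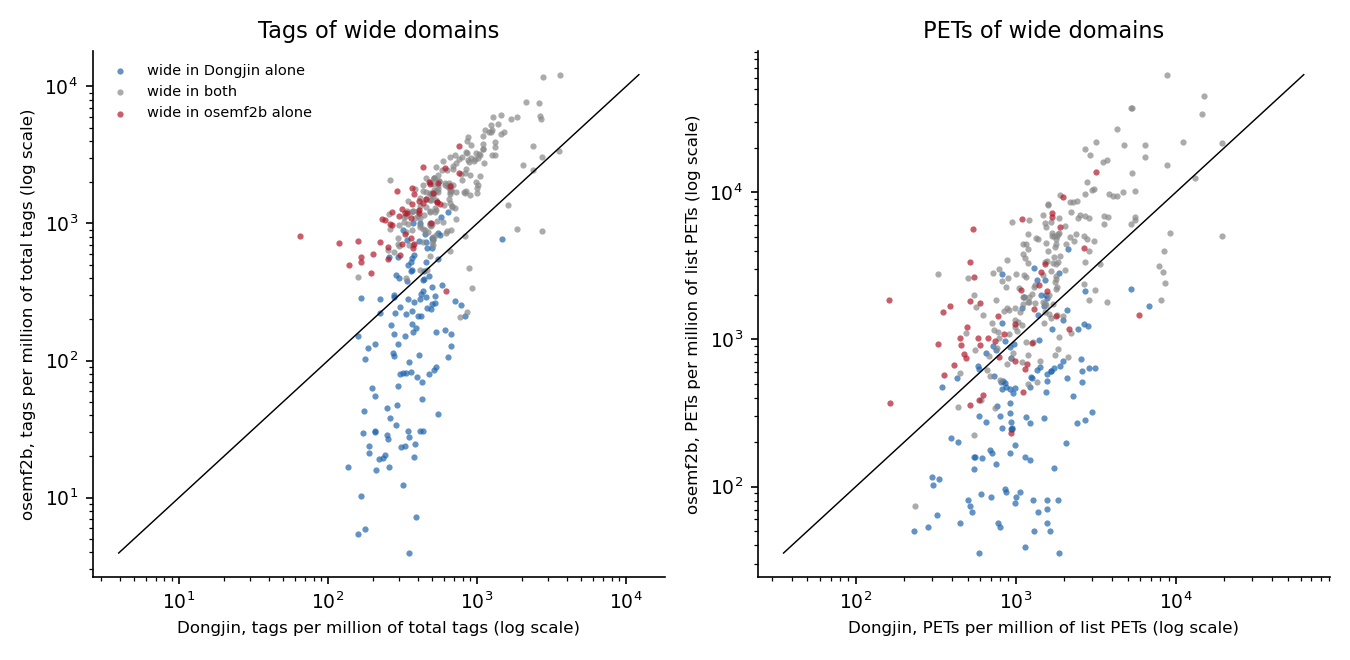
Tags per 1000000 total tags (left) and PETs per 1000000 list PETs (right) of each merged domain in Dongjin (horizontal) and osemf2b (vertical), on log scales, coloured by the list in which it was wide. The line marks equality; 365 domains with an anchor in both lists are drawn. In tags, 178 of 189 shared domains and 49 of 50 wide in osemf2b alone lie above the line.

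PETs followed tags less closely. As a share of the list, the shared domains went from 1669 to 3142 PETs per 1000000 on median and 148 of 189 were higher in osemf2b. In absolute PETs only 52 of 189 had more in osemf2b, whose list held fewer PETs in all. The shared domains had a median of 54.6 listed PETs per 1000 tags in Dongjin and 17.4 in osemf2b, and the domains wide in Dongjin alone had 65.2 and 21.8.

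Of the 5 shared domains with the most PETs, 4 had more PETs per 1000000 in osemf2b and 1 had fewer. On chromosome 7 from 2648154 to 2736952 they went from 15032 to 45022 (12309 and 12697 PETs in Dongjin and osemf2b), and on chromosome 12 from 19276316 to 19426772 from 8756 to 62818 (7170 and 17716 PETs). On chromosome 7 from 2362215 to 2455794 they went from 19422 to 21555 and from 1860936 to 1969357 from 14497 to 33898, although the PETs themselves were fewer in osemf2b, 6079 against 15904 and 9560 against 11871. The exception was chromosome 11 from 18527869 to 18627588, which went from 19255 to 5042 per 1000000 (15767 and 1422 PETs) and from 107222 to 27344 tags, although the widest anchor there was still 70.264 kb.

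Domains near this last one went both ways. On chromosome 11 from 18371461 to 18400146, wide in Dongjin alone, PETs per 1000000 went from 6766 to 1681. From 18657278 to 18678801, where osemf2b passed the limit with 21.524 kb and Dongjin had 18.141 kb, they went from 5901 to 1468, so a domain can be wide in osemf2b alone and still hold fewer PETs. The shared domain that starts at 18226431 went instead from 5558 to 6496 PETs and from 525 to 1218 tags per 1000000, and those that start at 18266164 and 18798927 had more tags (1004 and 1815, 373 and 692) with fewer PETs per 1000000. The opposite case was chromosome 7 from 1429524 to 1456736, also wide in osemf2b alone, with 2598 PETs and a widest anchor of 17.407 kb in Dongjin and 3850 PETs and 27.213 kb in osemf2b.

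The lowest ratios of osemf2b to Dongjin after the domain with no osemf2b anchor were on chromosome 11 from 24788329 to 24814883, where scaled PETs were 52.8-fold lower (1534 and 10 PETs), and on chromosome 9 from 21447207 to 21470228, where they were 33.0-fold lower (1343 and 14). In both the osemf2b anchor was short, 2.041 and 3.553 kb. The highest ratios were on chromosome 3 from 1291967 to 1312830 at 11.5-fold (132 and 524 PETs), chromosome 4 from 12050404 to 12076152 at 10.4-fold (442 and 1583) and chromosome 5 from 18943033 to 18981518 at 8.41-fold (269 and 779).

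Of the Dongjin loops between wide anchors, 63.5% (58.8 to 68.0) within 1 Mb and 11.7% (8.63 to 15.5) over 1 Mb had a loop over both ends in osemf2b, and 0 of 100 between chromosomes did. In the other direction 98.9% (96.0 to 99.9), 69.8% (55.7 to 81.7) and 1 of 101 did. Among loops between narrower anchors the shares were 7.84%, 0.465% and 0.147% for Dongjin in osemf2b, and 78.2%, 3.39% and 0.758% for osemf2b in Dongjin. The shares of wide pairs were thus above those of narrower pairs on the same chromosome, while between chromosomes both were near 0. The pair of regions listed in both was on chromosome 6 from 3693410 to 3761633 and chromosome 8 from 20627586 to 20648248, with 185 PETs in osemf2b where 146 were expected.

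PETs of wide regions were last set beside those of all regions, with overlapping anchors of all lists merged and PETs scaled on the list. A region had to have 20 PETs over both lists, and 2-fold was the limit for calling it higher or lower. Since width was used to choose them, the counts are descriptions. Of 366 wide regions 110 were higher in osemf2b than in Dongjin and 108 lower, against 5.32% and 76.7% of all 8032 regions. The median log2 ratio was 0.31 for wide regions and -1.92 for all, a difference of 2.23. Scaled on total tags instead, all ratios moved by -1.20 and the counts became 22 higher and 172 lower, against 1.23% and 89.5%, while the difference from all regions stayed the same by construction.

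For MH63 root over seedling, 106 of 507 wide regions were higher and 130 lower, against 41.0% and 17.0% of 9468 regions, and the median log2 ratio was -0.37 for wide regions and 0.55 for all. On total tags the counts were 83 and 212, against 34.2% and 25.3%. The regions differed by where they were wide, which the choice by width bears on: the median was -0.80 for the 213 wide in both tissues (4 higher in root and 85 lower), 0.45 for the 278 wide in root only and -1.82 for the 16 wide in seedling only.

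For ZS97 root over seedling, 54 of 363 were higher and 29 lower, against 27.1% and 27.2% of 9011 regions, with medians of -0.27 and -0.15. The difference of -0.13 turned to 0.061 when a listed loop was required in both lists. On total tags 344 were higher and 2 lower, against 74.7% and 7.92%, so that the direction of the counts depends on the scale there. On list PETs the median was -0.49 for the 161 regions wide in both ZS97 tissues (0 higher in root and 16 lower), 0.27 for the 182 wide in root only and -0.82 for the 20 wide in seedling only.

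For ZS97 over MH63 seedling, 5 of 242 were higher and 18 lower, against 30.1% and 10.8% of 7935 regions, and on total tags 1 and 201, against 10.7% and 44.0%. For the roots, 36 of 535 were higher and 52 lower, against 16.4% and 23.0% of 9785 regions, and on total tags 387 and 20, against 57.6% and 13.0%. On list PETs 219 of 242 wide regions in seedlings and 447 of 535 in roots stayed within 2-fold. Wide regions have more PETs than most regions, and the part of count size in these shares was not tested.

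The domains with the most extreme tissue ratios had the same direction in both varieties. On chromosome 4 from 26890234 to 26917663 there were 1229 PETs in MH63 seedling and no listed loop in MH63 root, and 789 and 19 in ZS97, 46.0-fold lower in root. On chromosome 6 from 26121305 to 26147389 scaled PETs were 23.1-fold lower in MH63 root (1436 and 85 PETs) and 18.2-fold lower in ZS97 root (919 and 56). In the other direction chromosome 10 from 14762248 to 14789198 had no listed loop in either seedling and 889 PETs in MH63 root and 511 in ZS97 root. The domain on chromosome 12 from 19456834 to 19482066 had 1449 and 1071 PETs in the roots, and chromosome 11 from 16593408 to 16632560 had 1035 and 768, again with none in the seedlings. Of 544 wide regions that could be compared in both varieties, 92 were higher in root in both (16.9%), 30 lower in both (5.51%) and 2 opposite (0.368%). Over all 7544 regions compared the shares were 21.1%, 10.7% and 2.36%, so each was lower among wide regions.

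Between varieties, chromosome 11 from 18829603 to 18900577 had 871 PETs in MH63 seedling and 6269 in ZS97 seedling, 7.58-fold higher in ZS97. The adjoining domain from 18904375 to 18975740 was 3.30-fold higher (1891 and 5926 PETs). The lowest were chromosome 12 from 15262761 to 15284726 (972 and 53 PETs, 17.4-fold), chromosome 12 from 13620418 to 13667032 (1391 and 86, 15.4-fold) and chromosome 7 from 17317294 to 17350004 (771 and 69, 10.6-fold). The last pair of these also had few PETs in ZS97 root, 71 against 2327 in MH63 root and 38 against 754. In roots the highest ratio was on chromosome 3 from 9886084 to 9912971, 4.95-fold higher in ZS97 (99 and 378 PETs). In roots, chromosome 12 from 13491449 to 13514863, chromosome 9 from 9329529 to 9351930 and chromosome 12 from 15693956 to 15714687 had 742, 578 and 366 PETs in MH63 and no listed loop in either ZS97 list. Whether such sequences exist in ZS97 as they do in the shared coordinate system was not tested.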

How the data were processed

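H3K27me3 ChIA-PET of 12 rice samples was deposited as 1 loop list per group, both replicates pooled. Per the labels' protocols, chromatin was fixed with formaldehyde and EGS and joined through a biotinylated bridge linker. The deposited lists hold, for each loop, the PET count and the tag count of both anchors, with the p-value the authors gave; other columns were not used. Aligner, loop caller and builds were not given in the sources used here.

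Unique anchors of 20 kb or more were taken from each list. Total tags were recovered from the deposited p-values. Anchors were merged at 1 bp of overlap. Scaled PETs were compared at 2-fold with at least 20 PETs, and intervals are 95% exact Poisson or binomial intervals of counting error. The steps were tested on simulated data. The members and lists were chosen with earlier results of these data known. Named regions were the widest, densest, sparsest and best-connected anchors of a list, the pairs with the most PETs, and the domains with the most PETs or the most extreme ratios. Alternatives were other width, overlap and PET minimums, other scaling and PETs within chromosomes. Python 3.11.15, pandas 2.3.3, NumPy 2.4.6, SciPy 1.17.1 and matplotlib 3.10.9 were used.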

Additional observations from a re-analysis of the deposited data

Results flagged for a closer look

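On chromosome 5 from 1623510 to 1691879 the root-to-seedling ratio of scaled PETs went opposite ways in the varieties, lower in MH63 root (2279 PETs in seedling and 1500 in root) and higher in ZS97 root (311 and 742), with a difference of -2.16 in log2 ratio, MH63 minus ZS97. On chromosome 11 from 18829603 to 18900577 it was higher in MH63 root (871 and 3340 PETs) and lower in ZS97 root (6269 and 3394), a difference of 2.52. Neither difference was tested, since each group is 1 pooled list.

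Loops to an unplaced contig held 66 PETs in MH63 seedling, 51 in MH63 root and 57 in ZS97 seedling, of which 19, 17 and 13 went to wide anchors. These loops stayed in the lists and in the comparisons, where the contig counted as another chromosome. The other 3 lists held none.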

How the results depend on the processing

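No paired analysis was possible because each group was deposited as 1 pooled list, and no replicate could be left out for the same reason. Of 183 alternative values, 74 stayed within their limits, 108 moved and 1 reversed. Part of this tally was fixed beforehand. Merging anchors within a list, and rescaling for the difference between wide and all regions, could change no value. The density ratios had limits of no width, so any change counted as moved. PETs between wide anchors made up 15.4%, 17.3% and 4.83% of the Dongjin list with loops of at least 3 PETs, at least 5 PETs and a 30 kb minimum width, and 41.4%, 43.6% and 22.4% of the osemf2b list. At 30 kb the share of wide anchors overlapping a wide one was 96.8% for MH63 seedling in MH63 root, 93.0% for ZS97 seedling in ZS97 root, 56.1% for MH63 root in ZS97 root, 69.2% for Dongjin in osemf2b and 63.5% for osemf2b in Dongjin, so the order of the last pair turned.

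With PETs within chromosomes only, the median log2 ratio of wide minus all regions was -1.10 for MH63 root over seedling, -0.78 for ZS97 root over seedling, -0.20 for ZS97 over MH63 seedling and 2.02 for osemf2b over Dongjin. In that setting 63 wide regions were lower in ZS97 root and 10 higher in ZS97 seedling. With a listed loop required in both lists it was -0.63 in MH63, 1.79 for osemf2b and 0.061 in ZS97, where it reversed from -0.13, and the cause was not tested. Scaled on total tags, the wide regions lower in MH63 root became 212, those higher and lower became 344 and 2 in ZS97 root, 1 and 201 for ZS97 over MH63 seedling, 387 and 20 for the roots, and 22 and 172 for osemf2b. With loops of at least 5 PETs, wide anchors made up 7.90% of osemf2b anchors, 3.53% in MH63 seedling, 2.87% in ZS97 seedling and 4.91% in ZS97 root, and their share of partners on other chromosomes was as low as 21.0%, in MH63 root. With a 30 kb minimum they made up 0.726% to 1.97% of anchors. Merging overlapping anchors within a list changed no value, since none overlap. Depth limits which weak contacts are listed.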
